A study of Homo sapiens with 70 samples.

Results

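The insulin-like growth factor (IGF) system was described in RNA-seq counts through 10 genes chosen by name from the 44503 counted genes. They were the ligands IGF1 and IGF2, the receptor IGF1R and the binding proteins IGFBP1 to IGFBP7. Their level was followed in 70 libraries of 11 groups and 3 experiments. The first experiment used IMR90, a normal human lung fibroblast strain, with 8 libraries in each of 4 groups, namely Grow and OIS and, with HMGA1 depleted, Grow-shA1 and OIS-shA1. OIS stands for oncogene-induced senescence. The second used IMR90 with 5 libraries in each of 5 groups, namely Grow-v-v, OIS-v-v and the hairpin groups OIS-shp53, OIS-shCEBPB and, with both, OIS-shCEBPB-shp53, and the third used H1299, a lung carcinoma cell line, with 7 libraries of H1299 and 6 of H1299-shA1.

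All IMR90 groups, the Grow groups included, carried pLNCX2 ER:HRAS G12V, an oncogenic RAS fused to an oestrogen receptor domain that 4-hydroxytamoxifen (4OHT) switches on. The OIS groups were cultured for 6 days with 100 nM 4OHT and the Grow groups without it. Grow-v-v is labelled day 0, so days of culture and 4OHT cannot be told apart in OIS-v-v against Grow-v-v. Groups named shA1 carried 1 short hairpin against HMGA1, an architectural chromatin protein that binds A/T-rich DNA, in the vector pMSCV miR, and their controls carried that vector empty. In the second experiment each group carried 2 vectors, pSuper empty or with the hairpin against CEBPB, and pMSCV miR empty or with the hairpin against p53, and "v-v" marks both empty. The cells were drug-selected polyclonal populations, so each group rests on a single hairpin for each target and not on single-cell clones. In IMR90 the hairpins were in place before 4OHT was added. IMR90 was grown in 5% oxygen and H1299 in atmospheric oxygen. The libraries were bulk RNA, so a change in every cell and a change in part of the cells cannot be told apart.

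IGF1 and IGF2 are secreted ligands that activate IGF1R, a receptor tyrosine kinase, which signals through the insulin receptor substrates, phosphatidylinositol 3-kinase and AKT and restrains the FOXO transcription factors. The binding proteins IGFBP1 to IGFBP6 hold the ligands outside the cell with high affinity and either keep them from the receptor or carry them to it, and proteases such as PAPPA release the ligand again. IGFBP7 binds IGFs weakly. Fibroblasts secrete several of these proteins, and IGFBPs are among the known secreted products of senescent cells.

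The genes sit in a few places of the genome, given here in hg19 and 1-based, with starts 1 base after those written in the count tables. IGFBP1 (ENSG00000146678, chr7:45927956-45933224, plus strand) and IGFBP3 (ENSG00000146674, chr7:45951949-45961473, minus strand) are neighbours that lie 18724 bases apart with 0 other counted genes between them. IGFBP2 (ENSG00000115457, chr2:217497551-217529159, plus strand) and IGFBP5 (ENSG00000115461, chr2:217536828-217560248, minus strand) form a similar pair, 7668 bases apart. IGFBP4 (ENSG00000141753) is at chr17:38599702-38613983 on the plus strand, IGFBP6 (ENSG00000167779) at chr12:53491220-53496129 on the plus strand and IGFBP7 (ENSG00000163453) at chr4:57896939-57976551 on the minus strand. IGF1 (ENSG00000017427) is at chr12:102789645-102874416 and IGF2 (ENSG00000167244) at chr11:2150342-2170833, both on the minus strand, and IGF1R (ENSG00000140443) is at chr15:99192200-99507759 on the plus strand. IGF2 shares 27.6% of its exon bases with other counted genes, INS-IGF2 (1460 bases) and IGF2-AS (333 bases) among them, and IGFBP7 shares 18.8%, mainly with the opposite-strand gene POLR2B (270 bases). The counting did not use strand, so the values of these genes are less certain than those of the others, of which only IGFBP5 shares any exon bases (4.6%).

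The promoters of IGFBP3, IGFBP4, IGFBP5 and IGFBP6 are shown as examples, since HMGA1 binds runs of A and T. They were chosen after their values were seen, among the 7 of 10 members with an entry in the sequence table. IGF2, IGFBP1 and IGFBP7 have no entry. In the main tests IGFBP3, IGFBP4 and IGFBP5 were called with the HMGA1 hairpin in IMR90. Among the hairpin groups compared to their vector controls, IGFBP6 was called only with the CEBPB hairpin. It was also called lower in OIS against Grow, OIS-shA1 against Grow-shA1 and OIS-v-v against Grow-v-v. IGF1R and IGFBP2 were also called with a hairpin and have windows that are not shown. The share of A and T was 18.8% in the window of IGF1R and 30.8%, 43.2% and 43.6% in those of IGFBP2. Each is the 250 bases before the annotated start, from RefSeq in GRCh38.p14, 5′ to 3′ along the gene's strand, with runs of at least 6 A or T bases in capitals. IGFBP3 is from chr7:45921273-45921522 (minus), IGFBP4 from chr17:40443200-40443449 (plus), IGFBP5 from chr2:216695550-216695799 (minus) and IGFBP6 from chr12:53097417-53097666 (plus).
IGFBP3: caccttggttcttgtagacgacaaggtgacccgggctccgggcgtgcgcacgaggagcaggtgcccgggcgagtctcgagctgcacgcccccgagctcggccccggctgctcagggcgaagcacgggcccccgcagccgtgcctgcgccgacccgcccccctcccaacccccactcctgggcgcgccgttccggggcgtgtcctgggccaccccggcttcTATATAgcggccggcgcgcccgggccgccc
IGFBP4: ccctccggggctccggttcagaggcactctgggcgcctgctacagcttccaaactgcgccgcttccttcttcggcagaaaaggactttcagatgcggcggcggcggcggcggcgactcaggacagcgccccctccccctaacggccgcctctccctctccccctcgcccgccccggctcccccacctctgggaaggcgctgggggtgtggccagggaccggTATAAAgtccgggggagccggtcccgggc
IGFBP5: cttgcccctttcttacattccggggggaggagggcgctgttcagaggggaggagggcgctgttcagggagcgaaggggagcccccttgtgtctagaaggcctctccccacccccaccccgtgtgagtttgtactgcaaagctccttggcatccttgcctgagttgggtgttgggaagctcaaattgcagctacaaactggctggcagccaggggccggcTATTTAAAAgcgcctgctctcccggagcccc
IGFBP6: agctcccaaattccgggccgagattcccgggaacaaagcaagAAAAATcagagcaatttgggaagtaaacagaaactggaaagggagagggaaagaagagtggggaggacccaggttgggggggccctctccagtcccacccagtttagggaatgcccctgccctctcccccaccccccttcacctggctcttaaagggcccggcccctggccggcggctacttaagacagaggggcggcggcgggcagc

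The share of A and T bases was 24% in the window of IGFBP3, 28.4% in that of IGFBP4 and 38.8% in those of IGFBP5 and IGFBP6, against a median of 42.0% over 35116 windows of the same length. Each of the 4 windows held 1 A/T run, as did 58.7% of all windows at least once. The run lay at −30 to −25 from the start in IGFBP3, −29 to −24 in IGFBP4, −31 to −23 in IGFBP5 and −208 to −203 in IGFBP6. The run of IGFBP4 is the TATA box sequence TATAAA, which 10.7% of all windows held on either strand. None of the windows of the 7 genes with an entry held TGANTCA (an AP-1 motif, in 6.57% of all windows) or TTGCNNAA (a C/EBP motif, in 9.05%), searched on both strands.

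Total counts per library ran from 1903607 to 22136571 in the first experiment, from 14544053 to 24890797 in the second and from 17747670 to 23649765 in H1299. OIS replicate 4 had the lowest total and stood apart from its group, and without it the IGF genes called remained 9 for OIS against Grow and, for OIS-shA1 against OIS, 4, while the interaction of shA1 with OIS was called for 5 of them instead of 4, with IGFBP6 added. A count of 3 corresponded to 0.126 to 1.43 CPM (counts scaled to a common library size) depending on the library, and only counting error is covered by such a floor. HMGA1, the target, had a level of 481.7 ± 41.3 CPM in Grow and 34.7 ± 3.93 CPM in Grow-shA1 (SD, n = 8), of 733 ± 68 CPM in OIS and 59.6 ± 5.66 CPM in OIS-shA1, and of 1888 ± 94.8 CPM in H1299 and 379 ± 35.4 CPM in H1299-shA1. CEBPB was at 295 ± 25.7 CPM (n = 5) in OIS-v-v and 35.5 ± 6.56 CPM in OIS-shCEBPB. All 7 fibroblast markers were at 1 CPM or more in Grow and in OIS, but their summed level was 37330 to 46650 CPM in Grow and 5512 to 6813 CPM in OIS. The 3 endothelial markers matched summed to 0.272 to 1.76 CPM in Grow, of 4 blood markers only CD68 passed 1 CPM and 2 were at 0, of 3 smooth muscle markers only CNN1 did, and of 5 epithelial markers KRT8, KRT18 and KRT19 did. In H1299, VIM and COL1A1 of the fibroblast list and KRT8 and KRT18 of the epithelial list passed 1 CPM, with EPCAM and CDH1 below it.

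In the proliferating IMR90 cells of Grow, mRNA of IGFBP3, IGFBP4, IGFBP5 and IGFBP7 stood above that of the ligands and the receptor, with IGF2 as the detected ligand. IGF1 had 0 counts in 56 of 57 IMR90 libraries and 3 counts in the remaining 1, so it was not detectable as an expressed gene at this depth. Per kilobase of exon (RPKM), the level in Grow was highest for IGFBP5 at 1193 ± 112 (SD, n = 8), followed by IGFBP4 at 519 ± 58.7, IGFBP7 at 419 ± 9.41 and IGFBP3 at 242.5 ± 14.9. IGF2 was at 90.3 ± 8.66 RPKM, IGFBP6 at 47.8 ± 4.57 RPKM and IGF1R at 8.59 ± 0.667 RPKM. IGFBP1 at 0.477 RPKM and IGFBP2 at 0.248 RPKM were the lowest and overlapped each other across libraries.

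In OIS, IGFBP5 stayed at the head of the order with 1013 RPKM, followed by IGFBP4 at 265 RPKM, IGFBP7 at 154 RPKM and IGF2 at 111 RPKM. IGF2 thereby stood above IGFBP3, which was at 35.2 RPKM, while in Grow it stood below. IGFBP6 at 20.8 RPKM and IGFBP1 at 13.3 RPKM overlapped across libraries, and IGF1R at 2.93 RPKM and IGFBP2 at 0.456 RPKM were lowest.

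In the second experiment IGFBP4 and IGFBP5 overlapped in Grow-v-v, at 562 ± 117 RPKM and 571 ± 84.1 RPKM (SD, n = 5), and IGFBP4 had the highest mean in all 4 OIS groups, overlapping the next gene in 3 of them and above it in OIS-shp53.

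The summed RPKM of the 7 binding proteins was 2422 ± 101 in Grow, 1502 ± 91.2 in OIS, 1978 ± 131 in Grow-shA1 and 1120 ± 59.0 in OIS-shA1 (SD, n = 8 each). IGFBP5 made up 49.2% ± 3.26 of this sum in Grow, 67.3% ± 2.98 in OIS and 55.4% ± 1.94 in OIS-shA1. The share of IGFBP3 was 10.0% in Grow and 2.34% in OIS, and that of IGFBP1 was 0.0196% in Grow and 0.884% in OIS. These sums weigh mRNA only and describe the libraries without a test.

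**Figure D1:**
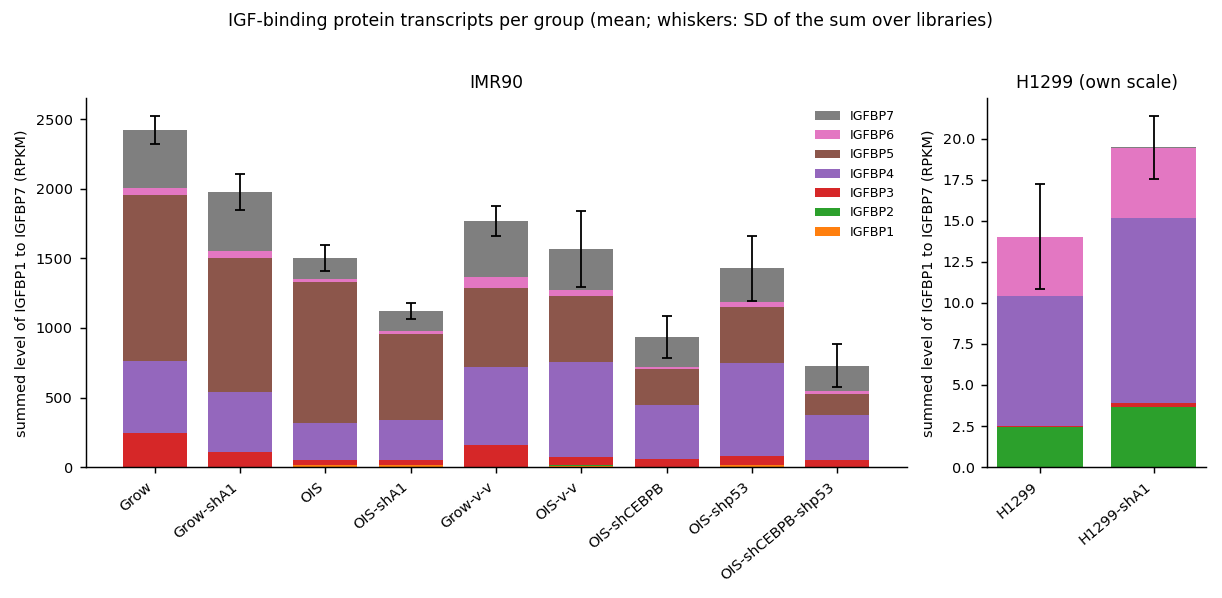
Stacked bars of the mean RPKM of IGFBP1 to IGFBP7 in each group, with whiskers for the SD of their sum over libraries and a scale of its own for H1299. IGFBP5 is the largest segment in each of the 4 groups of the first experiment, and the H1299 groups sum to 14 and 19.5 RPKM against 1120 to 2422 RPKM in those 4 groups, from tables normalised separately.

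Senescence shifted the IGF genes broadly: IGFBP1 rose from near the detection floor, IGF2 rose modestly, and IGF1R, IGFBP3, IGFBP4, IGFBP6 and IGFBP7 fell in OIS compared to Grow. Of the 9 genes tested, 3 were higher and 6 lower at an adjusted p under 0.05, where the adjusted p is the Benjamini-Hochberg value of edgeR's quasi-likelihood F test over all genes tested. In the same comparison 38.8% of all genes tested were higher and 35.9% lower, so a call alone does not set these genes apart. Their median log2 fold change was −0.93 against 0.03 over all genes tested. Fold changes below are on the log2 scale with their standard error (SE).

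IGFBP3, the main carrier of IGFs in serum, showed the strongest fall. Its level ran from 953 to 1144 CPM with a median of 1116 CPM in Grow and from 137 to 192 CPM with a median of 154.5 CPM in OIS. The groups did not overlap, and the log2 fold change was −2.75 ± 0.06 (adjusted p = 5.07e-25), a 6.71-fold difference. IGFBP7, which binds IGFs weakly and is secreted by fibroblasts, ran from 775 to 830 CPM in Grow and from 275 to 317 CPM in OIS. It changed by −1.4 ± 0.04 on the log2 scale (adjusted p = 1.4e-22), again without overlap. IGFBP4, an inhibitory binding protein cleaved by PAPPA, had a median of 1140 CPM in Grow, range 954 to 1314 CPM, and of 586 CPM in OIS, range 498 to 652 CPM (log2 fold change −0.93 ± 0.06, adjusted p = 8.92e-14). IGFBP6, which prefers IGF2 over IGF1, ran from 52.3 to 67.0 CPM in Grow and from 21 to 31.2 CPM in OIS (−1.13 ± 0.07, adjusted p = 6.78e-15).

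IGFBP1, known for its response to insulin and stress in the liver, moved the other way from its neighbour IGFBP3. It ran from 0.170 to 1.44 CPM in Grow, at a median of 0.793 CPM, and from 14.6 to 28.1 CPM in OIS, at a median of 22 CPM. The groups lay far apart, with a log2 fold change of 4.91 ± 0.20 (adjusted p = 5.03e-19). IGFBP5, which also binds the extracellular matrix, was at 6850 to 8645 CPM in Grow and 5552 to 7529 CPM in OIS. Its groups overlapped, with 6 of 8 OIS libraries below all Grow libraries, and the change was small at −0.20 ± 0.06 (adjusted p = 0.0061). With libraries scaled by their total alone, a scaling that moved the median of all genes by 0.189, the change of IGFBP5 was −0.01 and not called. IGFBP2 stayed close to the floor, with 1 to 15 counts per Grow library, 0.0548 to 0.878 CPM in Grow and 0.477 to 1.15 CPM in OIS (0.97 ± 0.30, adjusted p = 0.00523).

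The ligand and the receptor moved in opposite directions. IGF2 ran from 564 to 740 CPM with a median of 622 CPM in Grow and from 663 to 898 CPM with a median of 775 CPM in OIS. The groups overlapped, 5 of 8 OIS libraries lying above all Grow libraries, and the log2 fold change was 0.33 ± 0.06 (adjusted p = 8.34e-06). IGF1R ran from 105 to 135 CPM in Grow and from 36.6 to 44 CPM in OIS, with no overlap and a log2 fold change of −1.51 ± 0.05 (adjusted p = 3.46e-21). These differences moved together with the summed fibroblast markers given above and with the proliferation markers MKI67, TOP2A, CCNB1 and CCNA2, which summed to 1016 to 1352 CPM in Grow and 75.3 to 126.8 CPM in OIS, and the part of either in the IGF genes was not tested.

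**Figure D2:**
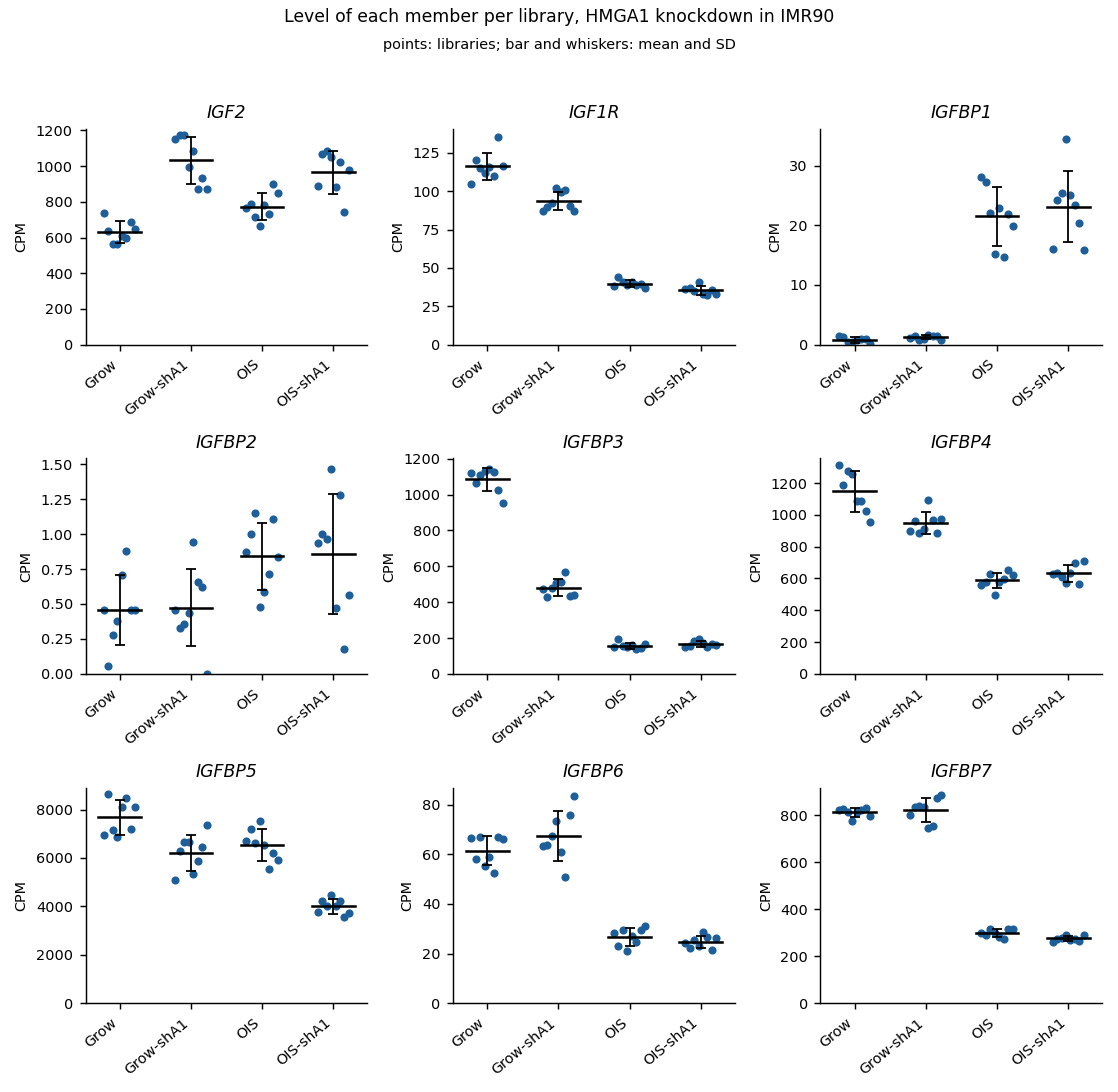
CPM of each detected IGF gene (y axes, one panel per gene) in the 8 libraries per group of the first experiment, with points for libraries and a bar with whiskers for mean and SD. IGFBP3 stands at 953 to 1144 CPM in Grow, at 430 to 568 CPM in Grow-shA1 and at 137 to 195 CPM in both OIS groups, while IGFBP5 is lowest in OIS-shA1 at 3562 to 4491 CPM.

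To ask which of these genes depend on HMGA1 in cycling cells, Grow-shA1 was compared to Grow, which is also the reference of the comparison above. HMGA1 depletion lowered IGFBP3 most and raised IGF2, with smaller falls of IGF1R, IGFBP4 and IGFBP5. Of 8 genes tested, 1 was higher and 4 were lower, against 14.8% and 15.1% of all genes tested, and the median log2 fold change of the 8 was −0.13 against 0.01 over all genes. IGFBP3 ran from 430 to 568 CPM with a median of 476 CPM in Grow-shA1, all below the lowest Grow library at 953 CPM (log2 fold change −1.17 ± 0.05, adjusted p = 1.29e-14). IGF2 ran from 870 to 1177 CPM in Grow-shA1, all above the highest Grow library at 740 CPM (0.71 ± 0.07, adjusted p = 7.6e-09).

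IGF1R was at 86.9 to 102 CPM in Grow-shA1, below all Grow libraries (−0.31 ± 0.05, adjusted p = 1.49e-05). IGFBP5 was at 5109 to 7372 CPM in Grow-shA1, with 7 of 8 libraries below all Grow libraries (−0.30 ± 0.07, adjusted p = 0.000816). IGFBP4 overlapped more, with 4 of 8 libraries below all Grow libraries (−0.27 ± 0.06, adjusted p = 0.00111). IGFBP1 (0.69 ± 0.29, adjusted p = 0.0789), IGFBP6 (0.14, adjusted p = 0.174) and IGFBP7 (0.02, adjusted p = 0.749) did not pass the test. IGFBP2, at 0 to 0.941 CPM in Grow-shA1, was under the filter on low counts.

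In OIS-shA1 compared to OIS, IGFBP5 was lower and IGF2 higher, with small falls of IGF1R and IGFBP7. Of 9 genes tested, 1 was higher and 3 were lower, against 18.8% and 17.1% of all genes tested, and the median log2 fold change was −0.03 against 0.00 over all genes. IGFBP5 ran from 3562 to 4491 CPM with a median of 4016 CPM in OIS-shA1, and from 5552 to 7529 CPM with a median of 6574 CPM in OIS. These ranges lay apart, with a log2 fold change of −0.71 ± 0.06 (adjusted p = 8.37e-11). IGF2 ran from 742 to 1085 CPM in OIS-shA1 and overlapped OIS (0.32 ± 0.07, adjusted p = 0.000421).

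IGF1R was at 32.1 to 41.0 CPM in OIS-shA1 and overlapped OIS (−0.17 ± 0.05, adjusted p = 0.0162). IGFBP7 was at 260 to 291 CPM in OIS-shA1 (−0.12 ± 0.04, adjusted p = 0.0252), a call that was lost without OIS replicate 3 (adjusted p = 0.0517) or without OIS-shA1 replicate 1 (adjusted p = 0.0584). IGFBP3 was at 148 to 195 CPM in OIS-shA1, a range that held most of the OIS range (0.08 ± 0.06, adjusted p = 0.32). IGFBP1 (0.07 ± 0.13, adjusted p = 0.73), IGFBP2 (−0.03 ± 0.28, adjusted p = 0.949), IGFBP4 (0.10 ± 0.05, adjusted p = 0.135) and IGFBP6 (−0.14 ± 0.07, adjusted p = 0.152) did not pass either.

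Whether the response to HMGA1 depletion differed between the states was tested by the interaction of shA1 with OIS in 1 fit over the 4 groups. It was called for 4 of 9 genes, 2 higher and 2 lower, against 12.2% and 11.4% of all genes tested, and their median was −0.14 against −0.01 over all genes. IGFBP3 had the strongest term at 1.25 ± 0.09 (adjusted p = 4.31e-14), since it fell in Grow-shA1 and changed little in OIS-shA1. IGFBP4 had a term of 0.38 ± 0.08 (adjusted p = 0.000777). IGFBP5, with its larger fall in the senescent state, had a term of −0.41 ± 0.09 (adjusted p = 0.0012), and IGF2, with its larger rise in the cycling state, one of −0.40 ± 0.10 (adjusted p = 0.00335). IGF1R (0.14, adjusted p = 0.161), IGFBP1 (−0.63 ± 0.34, adjusted p = 0.191), IGFBP2 (−0.07), IGFBP6 (−0.28, adjusted p = 0.0648) and IGFBP7 (−0.14, adjusted p = 0.0703) were not called.

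Senescence was also compared within the depleted cells, OIS-shA1 against Grow-shA1. Of 8 genes tested, 1 was higher and 6 were lower, against 37.1% and 36% of all genes tested, with a median log2 fold change of −1.0 against 0.02 over all genes. IGFBP1 rose by 4.26 ± 0.17 (adjusted p = 3.49e-18), from 0.80 to 1.57 CPM in Grow-shA1 to 15.8 to 34.4 CPM in OIS-shA1. IGFBP7 (−1.56 ± 0.04, adjusted p = 6.67e-22), IGFBP3 (−1.51 ± 0.06, adjusted p = 4.5e-18), IGFBP6 (−1.42 ± 0.08, adjusted p = 6.52e-15), IGF1R (−1.39 ± 0.05, adjusted p = 1.01e-18), IGFBP5 (−0.62 ± 0.06, adjusted p = 1.73e-09) and IGFBP4 (−0.57 ± 0.05, adjusted p = 1.47e-10) fell. IGF2, at 870 to 1177 CPM in Grow-shA1 and 742 to 1085 CPM in OIS-shA1, did not pass (−0.08, adjusted p = 0.351).

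**Figure D3:**
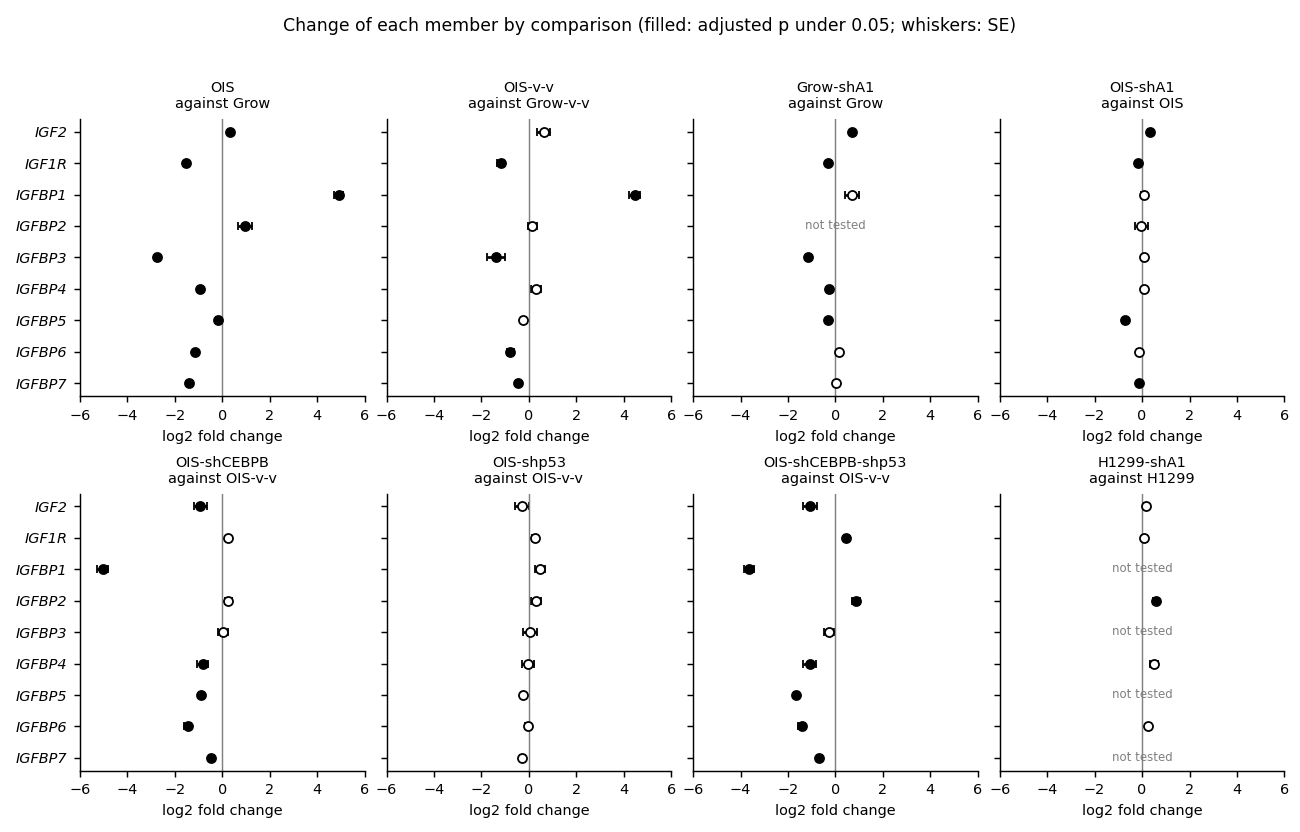
Log2 fold changes (x axis) with SE for each IGF gene in 8 comparisons, where filled points have an adjusted p under 0.05 and genes under the filter are marked as not tested. IGFBP1 reaches 4.91 in OIS against Grow and −5.03 in OIS-shCEBPB against OIS-v-v, and IGFBP3 reaches −2.75 in OIS against Grow.

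The second IMR90 experiment repeated the induction of senescence and added the hairpins against CEBPB, a transcription factor of the inflammatory secretory programme, and p53, which drives the cell cycle arrest. Its libraries fell into separate sets: on the first principal component, which held 47.0% of the variance within groups, the 15 libraries numbered 1 to 3 lay at 0.088 to 0.219 and the 10 numbered 4 and 5 at −0.335 to −0.171. The labels name no batch for these sets, and each was therefore also fitted alone. Within several groups the sets lay apart in the level of IGF genes such as IGFBP3, IGFBP4 and IGF2.

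In OIS-v-v compared to Grow-v-v, 1 of 9 genes was higher and 4 were lower, against 22.7% and 23.2% of all genes tested, with a median of −0.24 against 0.01 over all genes. IGFBP1 was at 0.665, 1.19, 0.882, 0.542 and 0.906 CPM in Grow-v-v and at 16.4, 14.5, 15.2, 22.8 and 23.0 CPM in OIS-v-v, in the order of replicates 1 to 5. All senescent libraries were far above all proliferating ones (4.46 ± 0.22, adjusted p = 2.44e-08). IGF1R fell by 1.19 ± 0.16 (adjusted p = 5.46e-05), IGFBP6 by 0.78 ± 0.14 (adjusted p = 0.000494) and IGFBP7 by 0.46 ± 0.10 (adjusted p = 0.00314) on the log2 scale.

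IGFBP3 was at 369, 376, 389.8, 1342 and 1008 CPM in Grow-v-v and at 335, 303, 345, 185 and 162 CPM in OIS-v-v. The fall (−1.38 ± 0.39, adjusted p = 0.0112) was −0.20 (adjusted p = 0.00185) in replicates 1 to 3 and −2.76 (adjusted p = 1.1e-08) in replicates 4 and 5, and with the replicate number as a block it lost its call (−1.18, adjusted p = 0.0718). IGF2 was at 599.6, 659, 575, 800.2 and 599 CPM in Grow-v-v and at 598, 658, 589, 1630 and 1461 CPM in OIS-v-v. It did not pass over all libraries (0.62 ± 0.29, adjusted p = 0.0937), with 0.01 (adjusted p = 0.84) in replicates 1 to 3 and a rise in replicates 4 and 5 (1.15, adjusted p = 6.29e-05). IGFBP4 rose in replicates 1 to 3 (0.39, adjusted p = 9.01e-07) with no difference called in replicates 4 and 5 (0.00, adjusted p = 0.99), and over all libraries it gave 0.29 (adjusted p = 0.31). IGFBP5 (−0.24, adjusted p = 0.103) and IGFBP2 (0.15, adjusted p = 0.541) did not pass over all libraries.

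**Figure D4:**
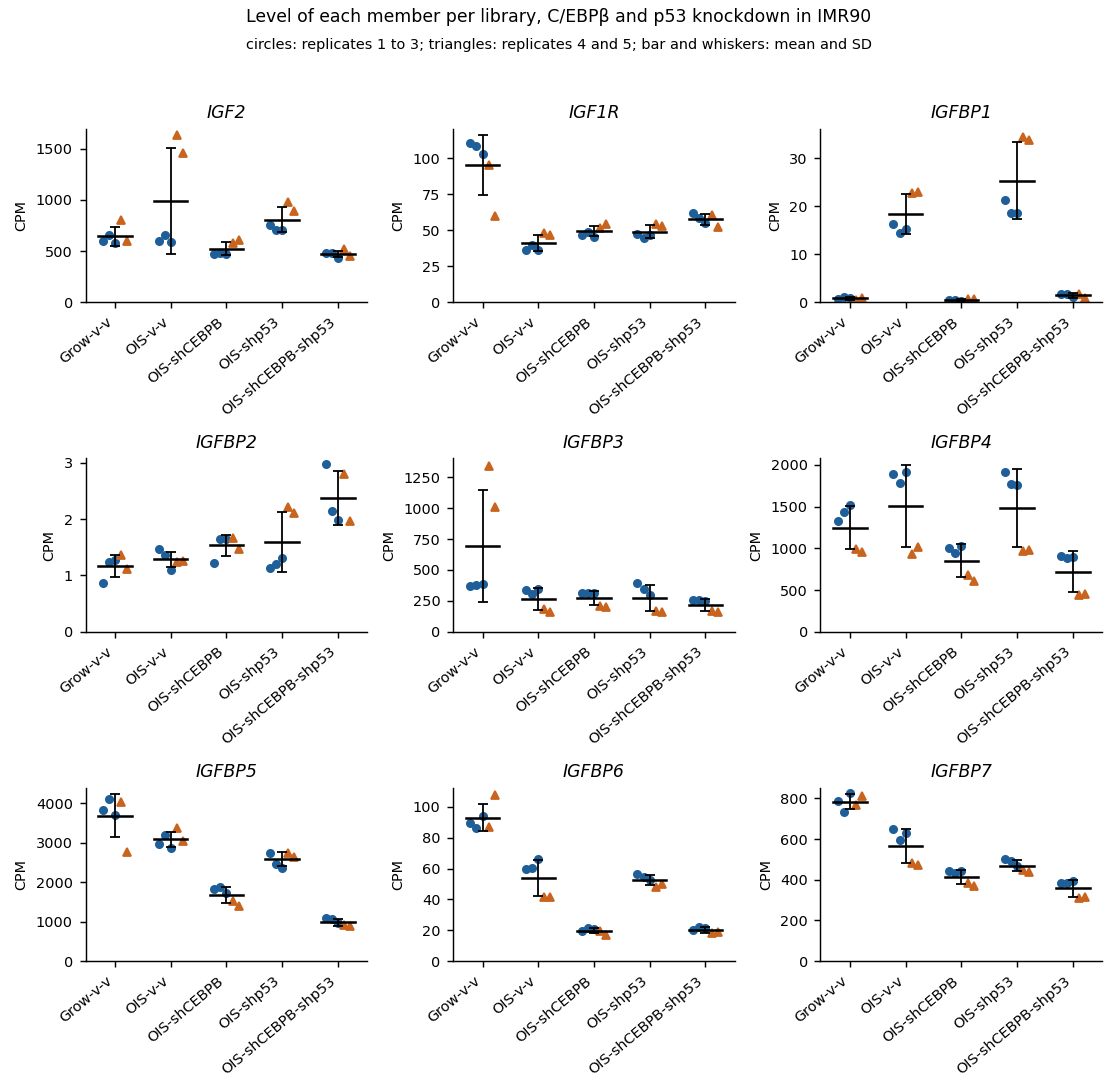
CPM of each detected IGF gene (y axes, one panel per gene) in the 5 libraries of each group of the second experiment, with circles for replicates 1 to 3, triangles for replicates 4 and 5, and a bar with whiskers for mean and SD. IGFBP1 lies at 14.5 CPM or above in OIS-v-v and OIS-shp53 and at 1.86 CPM or below in the other groups, and the triangles of IGFBP3 in Grow-v-v lie at 1008 and 1342 CPM above circles at 369 to 389.8 CPM.

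With CEBPB depleted before RAS was switched on, IGFBP1 was near the floor in OIS-shCEBPB. IGFBP5, IGFBP6 and IGFBP7 were lower than in OIS-v-v, as were IGF2 and IGFBP4. In OIS-shCEBPB compared to OIS-v-v, 0 of 9 genes were higher and 6 were lower, against 9.09% and 8% of all genes tested, and the median log2 fold change was −0.83 against 0.00 over all genes. IGFBP1 was at 0.583, 0.597, 0.262, 0.668 and 0.738 CPM in OIS-shCEBPB, each library under all OIS-v-v libraries. It fell by 5.03 ± 0.23 on the log2 scale (adjusted p = 7.43e-08), with −5.03 in both replicate sets. IGFBP6 was at 19.9, 21.3, 20.6, 19.5 and 17 CPM in OIS-shCEBPB and at 60.0, 60.2, 66.2, 41.7 and 41.8 CPM in OIS-v-v (−1.46 ± 0.14, adjusted p = 1.62e-05). The groups of IGFBP6 lay apart, as did those of IGFBP5.

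IGFBP5 was at 1819, 1875, 1715, 1526 and 1405 CPM in OIS-shCEBPB and at 2966, 3186, 2878, 3361 and 3051 CPM in OIS-v-v (−0.89 ± 0.09, adjusted p = 3.83e-05). IGFBP7 was at 371 to 443 CPM in OIS-shCEBPB and 474 to 649.7 CPM in OIS-v-v (−0.46 ± 0.10, adjusted p = 0.00841). IGFBP4 was at 1007, 949, 1025, 676 and 609 CPM in OIS-shCEBPB and at 1892, 1784, 1917, 928 and 1019 CPM in OIS-v-v. The groups of IGFBP4 overlapped only across the replicate sets (−0.83 ± 0.23, adjusted p = 0.0283), and the replicate block gave −0.79 (adjusted p = 1.74e-06). IGF2 was at 475, 487, 476, 580.1 and 606 CPM in OIS-shCEBPB (−0.92 ± 0.28, adjusted p = 0.0444), and its fall was −0.37 in replicates 1 to 3 and −1.4 in replicates 4 and 5. The call of IGF2 was lost without OIS-v-v replicate 4 (−0.66) or 5 (−0.73) and without any 1 of the OIS-shCEBPB libraries (−0.97 to −0.89), and that of IGFBP4 without OIS-v-v replicate 1, 2 or 3 or OIS-shCEBPB replicate 4 or 5 (−0.76 to −0.72).

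IGF1R gave 0.25 (adjusted p = 0.0844), called with the replicate block (0.25, adjusted p = 0.00333). IGFBP3 gave 0.02 (adjusted p = 0.972) and IGFBP2 0.26 (adjusted p = 0.328). The summed senescence arrest markers CDKN1A, CDKN2A and CDKN2B were at 2005 to 2364 CPM in OIS-shCEBPB and 1277 to 2151 CPM in OIS-v-v, and their part in these differences was not tested.

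Depletion of p53 before RAS was switched on gave small differences in the IGF genes, whose calls differed between fits. In OIS-shp53 compared to OIS-v-v, edgeR without the replicate block called 0 of 9 genes, against 2.47% higher and 1.97% lower of all genes tested. At an unadjusted p under 0.05 there were 3, and the share of all genes at that threshold was not counted. DESeq2 called 1, IGFBP5, against 8.16% of all genes in either direction. The median log2 fold change of the 9 was −0.03 against 0.00 over all genes. IGFBP1 was at 21.3, 18.6, 18.6, 34.3 and 33.8 CPM in OIS-shp53 (0.46 ± 0.21, adjusted p = 0.257). IGFBP5 was at 2727, 2450, 2356, 2745 and 2648 CPM (−0.26 ± 0.07, adjusted p = 0.054).

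With the replicate block, 4 of 9 genes were called in OIS-shp53, against 22.7% of all genes in either direction, namely IGFBP1 (0.44, adjusted p = 0.000426), IGF1R (0.25, adjusted p = 0.00398), IGFBP5 (−0.26, adjusted p = 0.00174) and IGFBP7 (−0.26, adjusted p = 0.00307). IGF2 was at 752, 707, 710.1, 977 and 890.4 CPM in OIS-shp53, above OIS-v-v in replicates 1 to 3 (0.23, adjusted p = 0.000135) and below it in replicates 4 and 5 (−0.73, adjusted p = 9.67e-06). The summed arrest markers were at 449 to 594 CPM in OIS-shp53, below Grow-v-v at 669 to 915 CPM, and their part was not tested.

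With both hairpins IGFBP1 and IGFBP4 to IGFBP7 and IGF2 were lower and IGF1R and IGFBP2 higher than in OIS-v-v, whose libraries are also the reference of the single hairpins. In OIS-shCEBPB-shp53 compared to OIS-v-v, 2 of 9 genes were higher and 6 lower, against 17.1% and 16.5% of all genes tested, with a median of −1.07 against −0.01 over all genes. IGFBP1 was at 1.86, 1.72, 1.05, 1.86 and 0.834 CPM (−3.64 ± 0.22, adjusted p = 2.32e-07). IGFBP5 was at 1083, 1067, 958, 915 and 879.5 CPM (−1.67 ± 0.08, adjusted p = 2.33e-08), its lowest level of any IMR90 group of this experiment. IGFBP6 (−1.43 ± 0.14, adjusted p = 9.47e-06), IGFBP7 (−0.68 ± 0.11, adjusted p = 0.00057), IGFBP4 (−1.08 ± 0.27, adjusted p = 0.00935) and IGF2 (−1.07 ± 0.28, adjusted p = 0.0106) also fell.

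IGF1R (0.46 ± 0.09, adjusted p = 0.00164) and IGFBP2 (0.87 ± 0.17, adjusted p = 0.00211) rose. IGFBP2 was at 2.97, 2.15, 1.98, 2.81 and 1.97 CPM with both hairpins and at 1.11 to 1.47 CPM in OIS-v-v. IGFBP3 gave −0.28 (adjusted p = 0.356), called with the replicate block (−0.25, adjusted p = 0.0121).

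The interaction of shCEBPB with shp53 was called by edgeR for 0 of 9 genes, against 0.0432% of all genes tested. At an unadjusted p under 0.05 there were 2, and the share of all genes at that threshold was not counted. DESeq2 called 1, against 0.216% of all genes. That 1 was IGFBP5 (−0.51 ± 0.11, adjusted p = 0.141 by edgeR and 0.00961 by DESeq2), which the fit with the replicate block also called (−0.51, adjusted p = 0.00842), as it did 0.75% of all genes. IGFBP1 had a term of 0.93 ± 0.42 (adjusted p = 0.976).

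H1299 cells held IGF2 mRNA and hardly any of the binding proteins. IGF2 was at 166 ± 20.1 RPKM (SD, n = 7), followed by IGFBP4 at 7.95 RPKM, IGFBP6 at 3.57 RPKM, IGF1R at 3.53 RPKM and IGFBP2 at 2.42 RPKM. IGFBP6 and IGF1R overlapped across libraries. IGFBP5, the most abundant member in the first IMR90 experiment, had 0 counts in 13 of 13 H1299 libraries, under a floor of 0.127 to 0.167 CPM. IGF1 had 0 counts in 9 of 13 and at most 3 in any. IGFBP1 summed to 2 counts over the 7 H1299 libraries and 4 over the 6 H1299-shA1 libraries, and IGFBP7 to 10 and 4.

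In H1299-shA1 compared to H1299, 1 of 5 genes tested was higher and 0 were lower, against 8.65% and 6.93% of all genes tested, with a median log2 fold change of 0.27 against 0.00 over all genes. IGFBP2 ran from 3.89 to 5.01 CPM with a median of 4.47 CPM in H1299 and from 5.66 to 8.69 CPM with a median of 6.53 CPM in H1299-shA1. The groups did not overlap (0.58 ± 0.11, adjusted p = 0.000952). IGF2 ran from 1028 to 1387 CPM in H1299 and from 1185 to 1511 CPM in H1299-shA1 (0.15, adjusted p = 0.162). IGFBP4 ran from 10.9 to 30.7 CPM in H1299, a spread that enclosed H1299-shA1 at 20.1 to 29.98 CPM (0.51 ± 0.18, adjusted p = 0.0628). IGFBP4 was called without H1299 replicate 1 (0.70) or 4 (0.58) and without H1299-shA1 replicate 3 (0.56) or 7 (0.55). IGF1R (0.07, adjusted p = 0.513) and IGFBP6 (0.27, adjusted p = 0.0929) did not pass.

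IGFBP3 was under the filter on low counts in H1299. It summed to 31 counts over the 7 H1299 libraries, 0 to 0.378 CPM, and to 134 counts over the 6 H1299-shA1 libraries, 0.382 to 1.84 CPM. All depleted libraries lay above all controls, at a ratio of mean CPM of 5.41. The exact two-sided permutation test, run for this member alone, gave p = 0.00117, the smallest this design allows. Full separation fixes that p, so it adds nothing to the ranges. How many other genes under the filter separate in this way was not counted. With no filter on low counts, edgeR gave a log2 fold change of 2.39 ± 0.37 for IGFBP3 (adjusted p = 8.01e-06). The level remained close to the floor in both groups.

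The other genes of the pathway were followed as a list of 28. In OIS compared to Grow, 7 of 21 tested were higher and 10 lower, against 38.8% and 35.9% of all genes tested. PAPPA, the protease that releases IGFs from IGFBP4 and IGFBP5, was at 461 ± 42.9 CPM (SD, n = 8) in Grow and 256 ± 22.4 CPM in OIS (−0.80, adjusted p = 2.33e-13), while in OIS-v-v against Grow-v-v it was not called (−0.12, adjusted p = 0.8). STC2, a stanniocalcin that inhibits PAPPA, fell from 1197 ± 69.9 CPM to 304 ± 23.0 CPM (−1.93, adjusted p = 1.17e-23). STC1, the related inhibitor, rose from 1382 ± 278 CPM to 4671 ± 196 CPM (1.79, adjusted p = 2.46e-17). GRB10, an adaptor that dampens receptor signalling, rose by 0.99 (adjusted p = 3.39e-17), and PIK3R1 rose by 0.75 (adjusted p = 3e-12).

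In Grow-shA1 compared to Grow, 7 of 21 were higher and 2 lower, against 14.8% and 15.1% of all genes tested, with STC1 at 1.01 and PAPPA at 0.71 among those higher and FOXO3 at −0.57 among those lower. In OIS-shA1 compared to OIS, 8 of 20 were higher and 4 lower, against 18.8% and 17.1%. PAPPA was at 484 ± 32 CPM in OIS-shA1 and rose by 0.91 over OIS (adjusted p = 1.06e-13). In OIS-shA1 compared to Grow-shA1, 7 of 20 were higher and 9 lower, against 37.1% and 36%. The interaction of shA1 with OIS was called higher for 2 of 21 and lower for 2, against 12.2% and 11.4%, among them STC1 at −0.81 and GRB10 at −0.50.

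In OIS-v-v compared to Grow-v-v, 5 of 20 were higher and 3 lower, against 22.7% and 23.2% of all genes tested, with STC1 at 1.99 and GRB10 at 1.06 higher and IRS1 at −0.80 lower. In OIS-shCEBPB, 2 of 20 were higher and 3 lower than in OIS-v-v, close to the 9.09% and 8% of all genes tested. HTRA1, a secreted protease that cleaves binding proteins, was at 173 ± 18.9 CPM (SD, n = 5) in OIS-v-v and 108 ± 9.15 CPM in OIS-shCEBPB (−0.68, adjusted p = 0.000131), and PAPPA gave 0.49. In OIS-shp53, 2 of 20 were higher and 1, PAPPA, was lower (−0.64, adjusted p = 0.000578), against 2.47% and 1.97%. With both hairpins 2 of 20 were higher and 6 lower, against 17.1% and 16.5%, with HTRA1 at −0.70 and PAPPA at −0.70, and the interaction of shCEBPB with shp53 was called for 0 of 20. In H1299-shA1, 4 of 20 were higher and 5 lower, against 8.65% and 6.93%, with STC1 at 0.68 higher and INSR at −0.42 lower, while PAPPA was at 0.281 CPM in H1299.

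Among the 8604 genes with a mean of at least 10 CPM in both IMR90 experiments, the gene whose log2 CPM followed each member most closely over the 57 IMR90 libraries was found by Pearson's r. These r describe libraries that share groups and experiments and carry no p. IGF1R was followed most closely by FERMT2 (r = 0.98) and IGFBP7 by FSTL3 (r = 0.98). IGFBP3 was followed by SULF1 (r = 0.94), with 0.98 within the first experiment and 0.79 within the second. IGFBP6 was followed by CUX1 (r = 0.92), IGFBP4 by COL8A1 (r = 0.90), IGFBP5 by RAPH1 (r = 0.84) and IGF2 by RASGRF2 (r = 0.76). IGF2 thus had the weakest closest match of these 7 members.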

How the data were processed

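Poly(A)-selected RNA of 70 libraries was sequenced by the authors on HiSeq-4000 or NovaSeq-6000 instruments after 1 of 2 stranded kits, and which library had which is not given in the sources used here. The authors aligned reads to hg19 with STAR and deposited raw counts per GENCODE19 gene made with featureCounts (version 1.5.2 in the headers of 2 tables), without strand and without reads that fall on 2 genes. The labels of the first experiment state fewer biological replicates than the 8 per group of the methods. All 8 libraries per group were used as independent. Whether some repeat the same biological sample is not known, and if so the SE and p of that experiment would be too small.

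Groups were taken from the labels. Genes were named for 42662 of 44503 identifiers (95.9%). Each comparison was fitted over all genes, with only its own groups in the model, in edgeR 4.0.16 (R 4.3.3, TMM factors, filterByExpr with its minimum of 10 counts, quasi-likelihood F test), and a gene was called where the p adjusted by Benjamini-Hochberg was under 0.05, whatever its fold. The SE is the log2 fold change divided by the square root of F. The fit was tested on simulated counts. CPM were scaled by TMM within each table, over all its libraries, and RPKM use the exon length given in it. All members tested were named in each comparison except OIS-shp53 and the interaction of shCEBPB with shp53. In those, main-test values of several members that were not called are left out. From the fixed pathway list, up to 6 called genes with the smallest adjusted p and a mean of at least 1 CPM were named. The members and lists were chosen with earlier results of these data known.

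Alternatives were DESeq2 1.42.0, upper-quartile or no scaling factors, other filters on low counts, a fold change of at least 1.5, all groups in 1 fit, the replicate number as a block, and leaving out each library. Fits of replicates 1 to 3 and of 4 and 5 alone were added after seeing the data. Deviations from the group means were compared between same-numbered libraries of the second experiment, over 9041 genes of at least 10 CPM. They correlated at 0.13 or more in every pair of all 5 comparisons. The number was therefore treated as a possible pairing there, from the data rather than the labels. Same-numbered libraries also share a replicate set, so these correlations cannot tell pairing by number from the difference between the sets. No pair of libraries agreed within sampling noise. The level of the gene targeted in OIS-shp53 is not reported here.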

Additional observations from a re-analysis of the deposited data

Results flagged for a closer look

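In 94 combinations of a member and a group of 4 to 10 libraries, 2 single libraries lay far from the rest of their group, where chance gives about 1 in 20. IGFBP4 in Grow-shA1 replicate 5 was at 1095 CPM, with the other 7 libraries at 884 to 974 CPM. IGFBP7 in H1299 replicate 6 was at 0.228 CPM, with the others at 0 to 0.0921 CPM, a value that rests on 5 counts.

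The response to HMGA1 depletion differed between the proliferating and the senescent state for 4 members, by the interaction term of edgeR. It was 1.25 ± 0.09 for IGFBP3 (adjusted p = 4.31e-14), 0.38 ± 0.08 for IGFBP4 (adjusted p = 0.000777), −0.41 ± 0.09 for IGFBP5 (adjusted p = 0.0012) and −0.40 ± 0.10 for IGF2 (adjusted p = 0.00335).

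IGFBP3 moved in opposite directions with the same hairpin in different cells. Its mean CPM in Grow-shA1 was 0.444 times that in Grow, with each depleted library below all controls, and in H1299-shA1 it was 5.41 times that in H1299, with each depleted library above all controls. The difference between the cell types was not tested, since the tables were normalised separately, and the H1299 values are close to the floor of 3 counts.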

How the results depend on the processing

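Of 1103 values of the 49 member calls in alternative fits, 1086 kept the direction and the call, 17 lost the call and 0 turned. Most of these fits left out 1 library, and a member under the filter of a fit gave no value. The minimum fold change of 1.5 is not among them. It left 2 of 5 calls in Grow-shA1, 1 of 4 in OIS-shA1 against OIS and 0 of 1 in H1299-shA1. It also lowered the calls in OIS against Grow, OIS-shA1 against Grow-shA1, OIS-v-v, OIS-shCEBPB and with both hairpins. OIS-shp53 had 1 call with DESeq2, 4 with the replicate block, 6 in replicates 1 to 3 and 3 in replicates 4 and 5. The interaction of shCEBPB with shp53 had 1 call with DESeq2, 1 with the replicate block, 4 in replicates 1 to 3 and 3 in replicates 4 and 5. H1299-shA1 had 3 calls with no filter on low counts, namely IGFBP2, IGFBP3 and IGFBP4, against 2124 of 27160 genes tested. It had 3 with the replicate block, against 2425 of 14758 genes tested.

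Leaving out 1 library gave 9 calls throughout in OIS against Grow, 5 to 6 in Grow-shA1, 3 to 4 in OIS-shA1 against OIS, 7 to 8 against Grow-shA1, 5 to 6 in OIS-v-v, 4 to 6 in OIS-shCEBPB, 0 throughout in OIS-shp53, 8 throughout with both hairpins, 1 to 3 in H1299-shA1, 4 to 6 in the interaction of shA1 with OIS and 0 to 1 in that of shCEBPB with shp53, where OIS-shCEBPB replicate 5 decided it (IGFBP5, −0.57). It turned the sign of uncalled values in OIS-shA1 (IGFBP1 −0.03 to 0.13, IGFBP2 −0.16 to 0.12), OIS-shCEBPB (IGFBP3 −0.12 to 0.13), OIS-shp53 (IGFBP3 −0.13 to 0.18, IGFBP4 −0.16 to 0.09, IGFBP6 −0.12 to 0.05), the interaction of shA1 with OIS (IGFBP2 −0.28 to 0.14) and that of shCEBPB with shp53 (IGF2 −0.12 to 0.27, IGF1R −0.09 to 0.01, IGFBP6 −0.01 to 0.16).

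Scaling by library totals alone turned IGFBP1 to −0.02 and IGFBP3 to 0.00 in OIS-shA1 against OIS and IGF2 to 0.01 in OIS-shA1 against Grow-shA1. It moved the median of all genes by 0.189 in OIS against Grow, 0.102 with both hairpins and −0.115 in the interaction of shA1 with OIS. It also moved the share of higher among all called genes from 51.9% to 66.2% in OIS against Grow, 49.4% to 60.3% in Grow-shA1, 52.3% to 27.8% in OIS-shA1 against OIS, 53.2% to 70.9% in OIS-shCEBPB, 50.9% to 71.0% with both hairpins and 51.7% to 20.4% in the interaction of shA1 with OIS. The replicate sets turned IGFBP3 to −0.08 in OIS-shCEBPB and IGF2 to 0.23 and IGFBP2 to −0.12 in OIS-shp53 (replicates 1 to 3), IGFBP3 to −0.07, IGFBP4 to 0.00 and IGFBP6 to 0.24 in OIS-shp53 (replicates 4 and 5), and in the interaction of shCEBPB with shp53 IGF2 to −0.28 and IGF1R to 0.00 (replicates 1 to 3) and IGFBP2 to −0.19, IGFBP6 to −0.21 and IGFBP7 to −0.16 (replicates 4 and 5). The cause was not tested.

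Over all genes, calls in OIS-shCEBPB were 2290 in the main test, 4270 with the replicate block and 4408 in replicates 1 to 3. In OIS-shp53 they were 594, with 1092 by DESeq2, 3037 with the block and 4578 in replicates 1 to 3, with both hairpins 4502 and 7240 in replicates 1 to 3, and in the interaction of shCEBPB with shp53 they were 6, with 30 by DESeq2, 104 with the block, 463 in replicates 1 to 3 and 294 in replicates 4 and 5.

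In the first experiment and H1299 the numbers were not treated as a pairing. Same-numbered deviations correlated between −0.47 and 0.47 there, and not every pair was over 0.1. Such correlations cannot exclude a pairing. In the 4 comparisons of the first experiment 2 to 6 of 16 libraries were closest to their own number, the 6 in Grow-shA1 against Grow, where 4 of 8 pairs were over 0.1, and in H1299 2 of 12. In the second experiment, where every pair was over 0.1, this was 5 of 10 in OIS-v-v, 7 in OIS-shCEBPB, 8 in OIS-shp53 and 4 with both hairpins. In the first experiment the replicate block added IGFBP1 in Grow-shA1 (6 calls) and IGFBP6 in the interaction of shA1 with OIS (5 calls). In H1299-shA1 it added IGF2 and IGFBP4. Depth limited IGF1, IGFBP2 in IMR90, and IGFBP1, IGFBP3, IGFBP5 and IGFBP7 in H1299.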
